A study of Homo sapiens with 31 samples.

Results

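Replicate cultures of Caco-2 cells were compared for how far they differed from one another in a microfluidic gut-on-chip and on static Transwell inserts. All 31 arrays of the series were used, 16 of chip cultures and 15 of Transwell cultures. For each gene the mean of its group was subtracted from every array, over 8 groups of culture system and medium, and only the deviations left within groups were compared. This leaves 12 degrees of freedom for the chip and 11 for Transwell, and differences between the means of groups are not examined. The values cover 22395 genes.

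The study grew Caco-2, a line from a human colorectal adenocarcinoma, for 21 days in either system. The cells were then exposed for 6 h to a nanomaterial suspension or to the matching dispersion without nanomaterial. The chip was perfused at 100 µL/h during culture, and flow was stopped during the exposure. Gene expression in total RNA was read on a whole-transcript array, and values are on the log2 scale, so that a difference of 1 is a 2-fold difference. The chip groups were TiO2-control (n = 4), TiO2 at 100 µg/mL (n = 4), ZnO-control (n = 4) and ZnO at 80 µg/mL (n = 4). The Transwell groups were TiO2-control (n = 4), TiO2 at 50 µg/mL (n = 3), ZnO-control (n = 4) and ZnO at 10 µg/mL (n = 4). TiO2 and its control medium are called the TiO2 set and ZnO with its own the ZnO set. The labels give a replicate number but do not say whether replicates were separate seedings, passages, chips or days. The spread between these samples may therefore be technical in part, and the p-values refer to these samples alone. Tests on group SDs take the 8 groups as their units, while an F test of pooled variances rests on deviations of single arrays. All cells were from 1 line.

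Caco-2 cells kept confluent stop dividing and take on features of absorptive enterocytes: a brush border with digestive enzymes, tight junctions and the machinery that packs dietary fat into lipoproteins. The line also makes several proteins of fetal gut and liver, among them apolipoproteins and clotting factors. The change from dividing to differentiated cells is gradual and depends on density and time in culture, so enterocyte genes and cell cycle genes are common readouts of how far a culture has gone.

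Arrays were alike in overall distribution, with medians of 3.243 to 3.333 and correlations between arrays of 0.942 to 0.987 over all probe sets. All 12 measured epithelial and enterocyte identity genes lay above the array medians in both systems, VIL1, CDX2 and EPCAM among them. Of 15 stromal and immune genes 7 did, and the mean level of these 15 genes was 3.94 to 4.46 in the chip arrays and 3.96 to 4.24 in the Transwell arrays. Both chip arrays numbered 4 in the TiO2 set stood apart from their groups. On a line drawn through 13744 brighter genes from the mean of chip TiO2-control replicates 1 to 3 (at 0) to that of chip TiO2 replicates 1 to 3 (at 1), each of those 6 arrays was placed with itself left out. Controls 1 to 3 then lay at 0.318 to 0.386 and TiO2 replicates 1 to 3 at 0.691 to 0.721. Chip TiO2 replicate 4 lay at 0.279, below every control, and chip TiO2-control replicate 4 at 0.572, above the other 3 controls. These 2 arrays were placed on a line with 3 arrays at each end, the other 6 with 2 arrays at 1 end. The places are thus not strictly on the same scale, and small differences between them cannot be read. Both arrays numbered 4 are named here by their labels. Whether the labels of these 2 arrays were exchanged cannot be told from these values, and an exchange would change the means, deviations and SDs of both groups. Results are therefore also given without these 2 arrays. Brighter genes are those with a mean above the highest array median in both systems.

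Chip replicates lay farther from their group means than Transwell replicates did. The within-group SD, as a root mean over all genes, was 0.305 in chip TiO2-control, 0.305 in chip TiO2, 0.303 in chip ZnO-control and 0.309 in chip ZnO. In Transwell it was 0.252 in TiO2-control, 0.228 in TiO2, 0.243 in ZnO-control and 0.238 in ZnO. The 4 chip groups were alike and all lay above the 4 Transwell groups, and the ratio of chip to Transwell, from the group values averaged on the log scale, was 1.27. The exact permutation test (two-sided) over 70 arrangements of the 8 groups gave p = 0.0286, the smallest p it can give. Over the brighter genes the pooled spread was 0.301 for chip replicates and 0.213 for Transwell replicates, and the ratio from the 4 group values of each system was 1.43. The ratio over all genes was 1.21 without both chip arrays numbered 4 in the TiO2 set and 1.18 when chip ZnO replicate 1 was left out as well. By array, chip TiO2 replicate 4 (0.367), chip ZnO replicate 1 (0.364) and chip TiO2-control replicate 4 (0.337) lay farthest from their groups. The other 13 chip arrays lay at 0.261 to 0.320 and the Transwell arrays at 0.221 to 0.2825, so the systems overlapped by array.

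**Figure D1:**
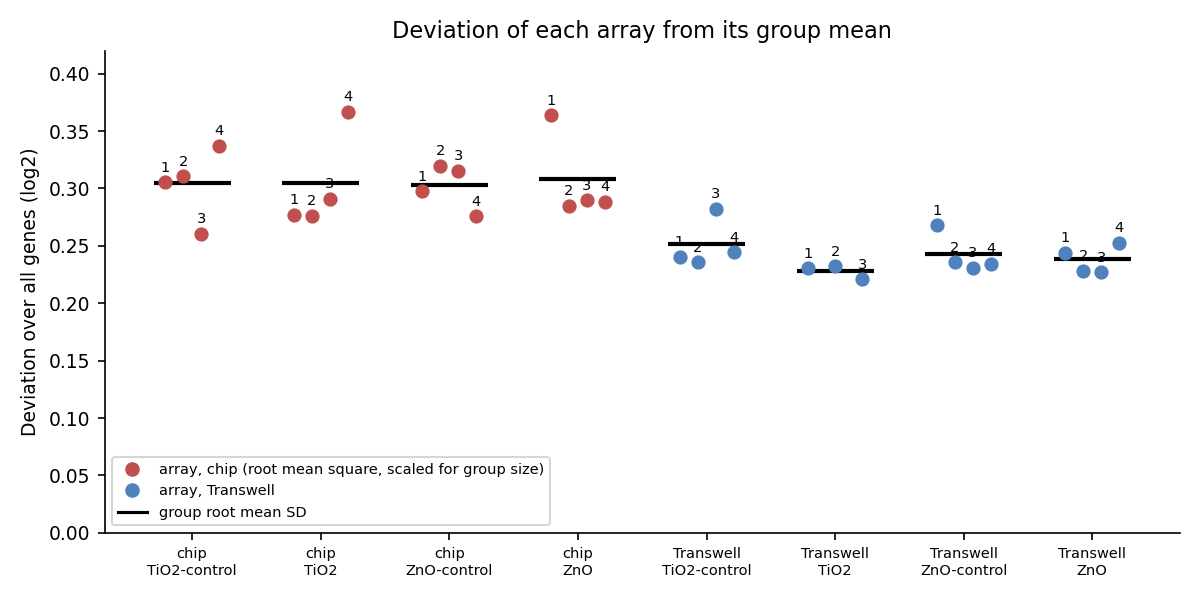
Deviation of each array from its group mean, as a root mean square over 22395 genes in log2 units and scaled for group size, for the 8 groups. Points are arrays with their replicate numbers and black lines are the group root mean SD. The chip lines lie at 0.303 to 0.309 and the Transwell lines at 0.228 to 0.252, while single arrays overlap between the systems.

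Gene by gene, the log2 SD of each group was fitted with limma, with the 4 chip and 4 Transwell groups as the values. With Benjamini-Hochberg adjustment over all genes, 186 of 22395 genes (0.831%) had more spread in the chip and 0 (0.00%) had less. At an unadjusted p below 0.05 there were 3432 (15.3%) and 225 (1.00%). In 72.6% of all genes the fitted ratio was above 1, with a median SD fold of 1.30, or 1.46 over the brighter genes. All 4 chip SDs lay above all 4 Transwell SDs in 2192 genes (9.79%) and below them in 130 (0.580%). The called genes had fitted SD folds of 3.72 to 13.5 with a median of 4.73. An F test of the pooled variances, which does not count differences of spread between media as error, called 1357 genes with more spread in the chip (6.06%) and 40 with less (0.179%), and all 186 were among the first.

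Which genes pass depends on single arrays and on expression level. Leaving out 1 array at a time gave 36 to 200 called genes. The count stayed within 1.5 times of 186 in 7 of these 31 fits, those without chip TiO2 replicates 1 (149), 2 (154) and 3 (200), chip ZnO-control replicate 4 (126), chip ZnO replicate 4 (132) and Transwell TiO2-control replicates 2 (144) and 3 (179). Among chip arrays it fell further without chip TiO2-control replicates 1 (103), 2 (82), 3 (118) and 4 (48), chip TiO2 replicate 4 (36), chip ZnO-control replicates 1 (93), 2 (109) and 3 (91) and chip ZnO replicates 1 (42), 2 (62) and 3 (92). Among Transwell arrays it fell further without Transwell TiO2-control replicates 1 (108) and 4 (117), Transwell TiO2 replicates 1 (62), 2 (75) and 3 (58), Transwell ZnO-control replicates 1 (123), 2 (56), 3 (59) and 4 (59) and Transwell ZnO replicates 1 (90), 2 (45), 3 (61) and 4 (109). Each such fit has fewer arrays in 1 group. Without both chip arrays numbered 4 in the TiO2 set, limma called 1 gene (0.00447%), SI, and 2577 genes had more spread at an unadjusted p below 0.05 (11.5%) and 250 had less (1.12%). Of the 186 genes 183 were among those 2577, with a median SD fold over the 186 of 4.31. The F test without the 2 arrays called 791 genes with more spread (3.53%), 182 of the 186 among them, and 21 with less (0.0938%). The 186 genes had been chosen on these same values, apart from those of the 2 arrays, and both cuts pass more genes. Large overlaps and a large median fold therefore follow in good part from the choice. Spread also changes with level on this array. From the dimmest to the brightest of 10 equal classes of genes the median log2 SD ratio went from 0.105 to 0.728, and the share called from 0.134% to 2.5%. When each group's SD was set against that of genes of like level in the same group, limma called 0 genes (0.00%). At an unadjusted p below 0.05, 913 had more spread in the chip. This comparison also takes out the difference between the systems that genes of like level share. It therefore cannot separate level from that shared difference. Of the 186 genes 175 were brighter genes, which is 1.27% of the 13744.

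**Figure D2:**
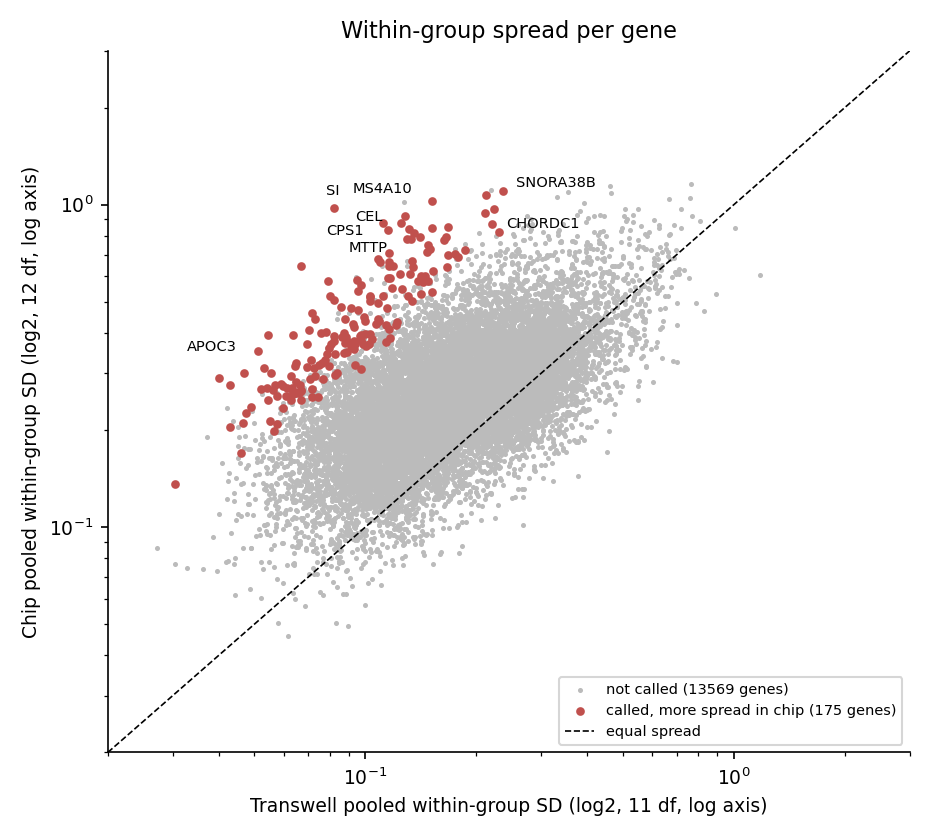
Pooled within-group SD of 13744 brighter genes in log2 units, Transwell (11 degrees of freedom) on the x axis against chip (12 degrees of freedom) on the y axis, both log axes. Red points are the 175 called genes, grey points the other 13569, and the dashed line marks equal spread. SI and APOC3 lie farthest to the left of the cloud among the labelled genes, with small Transwell SDs, and SNORA38B has the largest chip SD of the called genes.

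The gene with the largest called ratio was SI, sucrase-isomaltase, the brush border enzyme that splits sucrose and starch fragments. Its promoter is a textbook target of the intestinal factor CDX2. The 250 bases before its start are shown because the letters TTTATG, part of the CDX binding motif, occur there 3 times on this strand, from positions -236, -139 and -43. The sequence is from RefSeq GRCh38.p14, minus strand, chr3:165078497-165078746, written 5′ to 3′ with the matches in capitals.
SI promoter: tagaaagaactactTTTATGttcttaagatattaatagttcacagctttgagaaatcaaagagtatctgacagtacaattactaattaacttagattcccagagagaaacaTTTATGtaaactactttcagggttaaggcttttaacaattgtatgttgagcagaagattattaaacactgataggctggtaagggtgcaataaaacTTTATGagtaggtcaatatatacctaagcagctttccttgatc
Searched on both strands (TTTATG or CATAAA), the motif occurred in 9.64% of 35116 promoter windows of this length. It occurred in 3 of the 21 enterocyte gene promoters matched by symbol, those of SI, MTTP and FABP1. A match is a description of the letters and was not tested for binding.

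SI read 8.04, 8.09, 9.58 and 7.79 in TiO2-control medium, 7.52, 10.16, 9.07 and 9.46 with TiO2, 6.54, 7.60, 8.81 and 6.94 in ZnO-control medium and 8.12, 6.52, 5.85 and 7.13 with ZnO in the chip. In Transwell it read 11.35, 11.25, 11.09 and 11.36 in TiO2-control medium, 11.34, 11.28 and 11.29 with TiO2, 11.26, 11.30, 11.38 and 11.27 in ZnO-control medium and 11.31, 11.27, 11.43 and 11.27 with ZnO. The chip arrays thus ran from 5.85 to 10.16 and the Transwell arrays from 11.09 to 11.43. In every chip group the highest and lowest replicate were more than 1 log2 unit apart. Chip arrays had a pooled SD of 0.98 and Transwell arrays of 0.08, with a fitted fold of 13.5 (log2 3.76 ± 0.47, SE; limma adjusted p = 0.000869). SI was the 1 gene called without both chip arrays numbered 4 (adjusted p = 0.00235), and it was called in all 31 fits that each left out 1 array. No single array held more than 20.5% of its chip sum of squares. RNA came from whole cultures, so fewer cells with SI and less SI RNA per cell cannot be told apart. The levels of the systems differ, and the part of level in the difference of spread was not tested. In the comparison at like level the log2 ratio of SI was 2.63.

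Some other genes of the brush border and of fat absorption were called too, beside 0.831% of all genes by limma and 6.06% by the F test. Of 28 measured brush border and enterocyte genes 7 were called with more spread in the chip: SI, LCT, APOA1, APOB, MTTP, CDHR5 and MEP1A. The list's median SD fold was 2.52, against 1.30 for all genes, and 2.10 without the 2 arrays. The F test called 10 of the 28, and 8 without the 2 arrays. Of 25 measured genes of bile acid and lipid absorption 8 were called (CYP27A1, SLC10A2, MTTP, APOB, APOA1, APOC3, PLIN2 and CIDEB). Their list had a median SD fold of 1.96 (1.99 without the 2 arrays), and the F test called 11, or 10 without them. Of these called genes MTTP, APOA1 and APOB are members of both lists. Without the 2 arrays limma called SI alone among the members of either list. APOB lost its call in 28 of the 31 fits that left out 1 array.

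MTTP, the microsomal protein that loads lipid onto apolipoprotein B, read 8.23, 8.56, 8.88 and 6.89 in TiO2-control medium, 7.72, 8.79, 8.33 and 7.40 with TiO2, 5.66, 5.86, 7.66 and 5.78 in ZnO-control medium and 6.29, 6.51, 5.18 and 5.59 with ZnO in the chip. Its Transwell values ran from 9.44 to 9.87. In each chip group the replicates differed by over 1 log2 unit, and ZnO-control replicate 3 stood above its 3 neighbours. The pooled SD was 0.78 in the chip and 0.13 in Transwell (fitted fold 8.42, limma adjusted p = 0.0160). The adjusted p was 0.0621 without chip ZnO-control replicate 3 and 0.0654 without both arrays numbered 4.

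APOC3, an apolipoprotein that slows the clearance of triglyceride-rich particles, was among the brightest genes. It read 11.80, 12.28, 12.15 and 11.24 in TiO2-control medium, 11.96, 12.09, 12.04 and 11.43 with TiO2, 10.80, 11.54, 11.61 and 11.47 in ZnO-control medium and 11.72, 11.38, 11.18 and 11.48 with ZnO in the chip and 11.95 to 12.29 in Transwell. Its SD was 0.35 against 0.05 (fold 8.45, limma adjusted p = 0.0138, and 0.101 without both arrays numbered 4). Chip TiO2-control replicate 4 and chip TiO2 replicate 4 were each the lowest of their group, and without the latter alone the adjusted p was 0.0548.

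LCT, the milk sugar enzyme lactase, had an SD of 0.58 in the chip and 0.15 in Transwell (fold 4.11), and CDHR5, a cadherin that links neighbouring microvilli, had 0.37 and 0.09 (fold 4.55). CYP27A1, which oxidises the side chain of cholesterol on the way to bile acids, had 0.44 and 0.11 (fold 4.39). CIDEB, a lipid droplet and lipoprotein assembly protein, had 0.44 and 0.11 (fold 4.87). SLC10A2, the ileal bile acid importer, had 0.55 and 0.13 (fold 3.98). These 5 had limma adjusted p-values of 0.0378 to 0.0497, and of 0.141 to 0.173 without both arrays numbered 4. With 1 array left out, LCT lost its call in 20 of 31 fits, CDHR5 in 13, and CYP27A1 and CIDEB in 21 each. Not every enterocyte gene passed. FABP1, the cytosolic fatty acid binding protein, had SDs of 0.28 and 0.12 (fold 2.30, adjusted p = 0.214). APOA4, a chylomicron apolipoprotein, had SDs of 0.87 and 0.26 (fold 2.60) and passed the F test (adjusted p = 0.0153) but not limma (adjusted p = 0.203).

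Among all called brighter genes, the 15 with the largest chip SD were SNORA38B, KCNJ16, MS4A10, SI, CHORDC1, TAS2R14, CEL, CPS1, AGMO, ADAM20P1, TLDC2, GRAMD1B, SERPINC1, SNORA60 and TAT. Except for SI, none of the 15 was called without both chip arrays numbered 4 in the TiO2 set, so they were listed after a condition of the naming rule was dropped. MS4A10, a member of the membrane-spanning MS4A family, ran from 4.81 to 9.35 in the chip and 9.37 to 10.29 in Transwell (SD 1.03 and 0.15, fold 11.5). Its limma adjusted p was 0.00909, 0.0531 without Transwell TiO2 replicate 1, and 0.0566 without the 2 arrays. CPS1, which makes carbamoyl phosphate for the urea cycle, ran from 3.90 to 7.81 and 9.54 to 9.90 (SD 0.88 and 0.11, fold 7.56, limma adjusted p = 0.00909, and 0.0566 without the 2 arrays). AGMO, which cleaves ether lipids, ran from 2.54 to 6.06 in the chip and 7.34 to 8.41 in Transwell (SD 0.87 and 0.12, fold 7.76). Its lowest chip values lay below the array medians. SERPINC1, the clotting inhibitor antithrombin, had SDs of 0.84 and 0.13 (fold 6.17). CPS1 and AGMO were called in all 31 fits that left out 1 array, and SERPINC1 in all but that without chip ZnO-control replicate 3 (adjusted p = 0.0539).

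CEL, the bile salt-dependent lipase, had chip values on both sides of its Transwell range. It read 7.39, 9.20, 8.69 and 7.71 in TiO2-control medium, 9.10, 9.85, 9.54 and 8.19 with TiO2, 7.24, 8.71, 8.28 and 8.71 in ZnO-control medium and 8.98, 6.42, 8.98 and 9.03 with ZnO in the chip and 7.84 to 8.29 in Transwell. Replicates 1 and 4 were the low ones in chip TiO2-control medium, and replicate 1 in ZnO-control medium. Its SD was 0.92 against 0.13 (fold 7.05, limma adjusted p = 0.00909, and 0.0566 without both arrays numbered 4). Chip ZnO replicate 2 was the lowest of all and held 36.8% of the chip sum of squares, and without it the adjusted p was 0.160. KRT20, a keratin of differentiated gut epithelium, had SDs of 0.64 and 0.12 (fold 5.99, limma adjusted p = 0.0378). Its adjusted p was 0.0654 without both arrays numbered 4, and it lost its call in 14 of 31 fits that left out 1 array. EPCAM, the general epithelial adhesion molecule, had 0.09 and 0.05 (fold 1.88, adjusted p = 0.324). Of the 12 identity genes KRT20 was the 1 called, and the list's median SD fold was 1.36, or 1.07 without the 2 arrays.

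**Figure D3:**
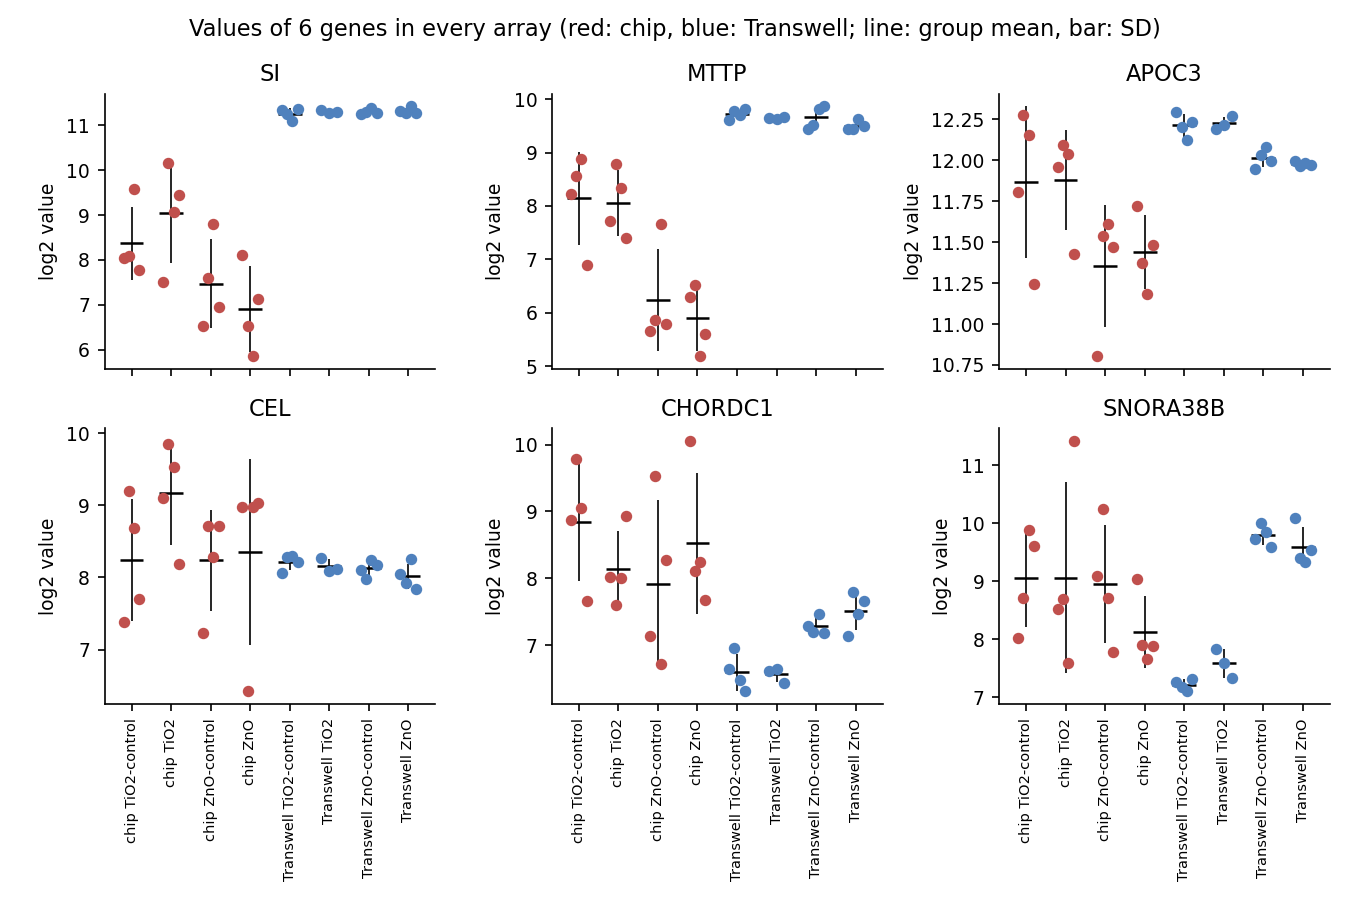
Log2 values of SI, MTTP, APOC3, CEL, CHORDC1 and SNORA38B in each of the 31 arrays, by group. Red points are chip arrays, blue points Transwell arrays, black lines group means and bars the SD of the group. SI runs from 5.85 to 10.16 over chip arrays and from 11.09 to 11.43 over Transwell arrays, and CEL has chip values on both sides of its Transwell range.

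Cell cycle genes were not called one by one but moved together between chip replicates. Of 29 measured proliferation genes 0 passed limma (10 at an unadjusted p below 0.05), 7 passed the F test (4 without the 2 arrays), and the median SD fold was 1.84 (1.81 without them). TYMS, the thymidylate synthase of DNA synthesis, had SDs of 0.26 and 0.07 (fold 3.91, limma adjusted p = 0.0521). ASPM, a spindle pole protein, ran from 6.22 to 7.83 in the chip and 7.69 to 8.34 in Transwell (SD 0.51 and 0.13, fold 3.68, adjusted p = 0.0770). Its lowest chip value was that of TiO2-control replicate 2. The mean deviation of the 29 genes was 0.18, -0.57, 0.04 and 0.35 in chip TiO2-control replicates 1 to 4, and -0.16 to 0.18 in the other 12 chip arrays. In Transwell it was -0.08 to 0.15. The mean correlation between pairs of these genes was 0.574 over the chip arrays, 0.763 in the TiO2 set and 0.186 in the ZnO set, against 0.299 in Transwell and 0.01 over all genes in the chip. These genes thus moved as a block in the TiO2 set of the chip more than in its ZnO set, a difference that was not tested. Of 14 stem and progenitor genes RNF43, a brake on WNT receptors, was called (SD 0.25 and 0.06, fold 4.33, limma adjusted p = 0.0398, and 0.120 without the 2 arrays), and it lost its call in 16 of 31 fits that left out 1 array.

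Metallothioneins, small proteins that hold zinc and copper and are induced by zinc, varied between replicates of 1 medium. Of 10 measured members MT1M was called and the F test called 5 (4 without the 2 arrays). The list's median SD fold was 2.28, or 2.09 without them. Probes of these near-identical paralogs can bind more than 1 member, so values of single members are uncertain. MT1M read 1.84, 4.62, 3.55 and 3.06 in TiO2-control medium, 3.40, 2.29, 2.07 and 5.05 with TiO2, 4.35, 4.79, 3.20 and 7.20 in ZnO-control medium and 7.38, 9.69, 9.32 and 10.15 with ZnO in the chip. In Transwell it ran from 2.02 to 4.47, with a mean below the highest array median. Its SD was 1.37 against 0.30 (fold 5.40, limma adjusted p = 0.0257). The adjusted p was 0.0761 without both arrays numbered 4, and at most 0.0675 without chip TiO2 replicate 4 or chip ZnO replicate 1 alone. MT1G (fold 3.08), MT1B (3.29) and MT1H (2.87) had adjusted p-values of 0.0876 to 0.120. MT1X (2.10) and MT2A (1.81) had 0.281 and 0.409. Over the 7 brighter members the mean deviation ran from -0.62 in chip TiO2-control replicate 4 to 1.02 in chip TiO2-control replicate 2, arrays of the same control medium. In chip ZnO-control it ran from -0.52 (replicate 2) to 0.725 (replicate 4). The Transwell arrays lay at -0.21 to 0.34. The mean correlation between members was 0.563 in the chip, 0.517 without the 2 arrays and 0.161 in Transwell. Of 21 zinc transport genes limma called 0 (5 with more and 1 with less spread at an unadjusted p below 0.05) and the F test 3 with more and 1 with less. Their median log2 SD ratio was 0.58.

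Heat shock genes code for chaperones that refold proteins and are induced by the factor HSF1. Of 15 measured members limma called 0 (5 at an unadjusted p below 0.05), the F test called HSPB1, CRYAB and DNAJB1, and the median SD fold was 1.66 (1.77 without the 2 arrays). DNAJB1, a partner of HSP70, ran from 8.70 to 10.56 in the chip, with 8.70, 10.50, 8.86 and 9.85 in ZnO-control medium, and from 8.37 to 9.63 in Transwell (SD 0.46 and 0.10, fold 3.96, limma adjusted p = 0.0935, F test adjusted p = 0.00247). Over the 13 brighter members the mean deviation was -0.245, 0.445, -0.514 and 0.314 in chip ZnO-control replicates 1 to 4. It was -0.16 to 0.08 in the other 12 chip arrays and -0.15 to 0.12 in Transwell. The spread of this list was thus mostly that of 1 control group, with replicates 2 and 4 high and 1 and 3 low. Its mean correlation between members was 0.549 in the chip ZnO set, 0.017 in the chip TiO2 set and 0.179 in Transwell.

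CHORDC1, a co-chaperone of HSP90 that is itself induced by heat, was called. The 250 bases before its start are shown because the heat shock element letters GAANNTTC occur there 3 times, from positions -205, -60 and -50. The sequence is from RefSeq GRCh38.p14, minus strand, chr11:90223050-90223299, 5′ to 3′ with the matches in capitals.
CHORDC1 promoter: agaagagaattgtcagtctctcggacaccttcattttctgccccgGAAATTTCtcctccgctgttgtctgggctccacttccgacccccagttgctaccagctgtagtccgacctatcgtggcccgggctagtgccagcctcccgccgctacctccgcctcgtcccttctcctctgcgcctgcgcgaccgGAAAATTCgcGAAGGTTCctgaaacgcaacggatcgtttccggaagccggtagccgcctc
GAANNTTC reads the same on both strands and occurred in 5.78% of the 35116 windows, and in 5 of 13 heat shock gene promoters matched by symbol. CHORDC1 read 8.87, 9.78, 9.05 and 7.66 in TiO2-control medium, 8.02, 7.61, 8.002 and 8.93 with TiO2, 7.14, 9.52, 6.72 and 8.28 in ZnO-control medium and 10.05, 8.11, 8.24 and 7.68 with ZnO in the chip and 6.31 to 7.79 in Transwell. ZnO replicate 1, TiO2-control replicate 2 and ZnO-control replicate 2 were high, while ZnO-control replicates 1 and 3 were low. Its SD was 0.97 against 0.22 (fold 4.50, limma adjusted p = 0.0400, and 0.151 without both arrays numbered 4), and it kept the call in 12 of 31 fits that left out 1 array. Over the 16 chip arrays its deviations correlated with the mean of the 13 heat shock genes at r = 0.679 (Spearman's rho 0.732). That was 0.735 without the 2 arrays numbered 4, 0.443 without the 2 arrays farthest out on the heat shock mean, and -0.146 over the 15 Transwell arrays.

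Small nucleolar RNAs guide the chemical modification of other RNAs. Of 213 such genes measured 3 were called (1.41%, beside 0.831% of all genes): SNORA38B, SNORA46 and SNORA60. Of 16 genes of small nuclear RNAs, which serve in splicing, limma called 0 (7 at an unadjusted p below 0.05) and the F test 5. Of the 19 small nucleolar RNA genes in the list used here 1 was called, and the list's median SD fold was 1.74. SNORA38B had the largest chip SD of all called brighter genes. It read 8.02, 8.72, 9.88 and 9.61 in TiO2-control medium, 8.51, 8.70, 7.59 and 11.42 with TiO2, 9.08, 10.24, 8.71 and 7.78 in ZnO-control medium and 9.03, 7.90, 7.66 and 7.88 with ZnO in the chip. In Transwell it read 7.27, 7.17, 7.10 and 7.32 in TiO2-control medium, 7.84, 7.58 and 7.33 with TiO2, 9.72, 10.01, 9.85 and 9.60 in ZnO-control medium and 10.10, 9.40, 9.32 and 9.54 with ZnO. Within each Transwell group the replicates lay close together, although the TiO2 and ZnO sets lay apart. Its SD was 1.10 against 0.24 (fold 4.99, limma adjusted p = 0.0381, and 0.128 without both arrays numbered 4). Chip TiO2 replicate 4 alone held 38.3% of the chip sum of squares, and the call held in 16 of 31 fits that left out 1 array. The list's mean deviation was highest in chip ZnO-control replicate 2 (0.666), chip TiO2 replicate 4 (0.565) and chip ZnO replicate 1 (0.520), and the other chip arrays lay at -0.35 to 0.17. Over the chip arrays it ran with that of 22 ribosomal protein genes at r = 0.870 (rho 0.628). Without the 2 arrays farthest out on the first list r was 0.780, and in Transwell it was 0.685. Many small nucleolar RNAs lie in introns of ribosomal protein genes, and all arrays share 1 normalization. Of 1018 microRNA genes limma called 0 (64 at an unadjusted p below 0.05) and the F test 19, and the median SD fold of the brighter ones was 1.18.

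The other lists are given by their counts, beside 0.831% of all genes called. One gene each was called for interferon response (IFI6, fold 3.76), YAP targets (KRT80, fold 5.05), extracellular matrix (MMP7, a secreted protease of gut epithelium, fold 5.25) and fatty acid oxidation with PPAR targets (PLIN2, the lipid droplet coat protein, fold 4.32). Their adjusted p-values by limma were 0.123, 0.141, 0.156 and 0.187 without both arrays numbered 4. With 1 array left out, IFI6 lost its call in 28 of 31 fits, PLIN2 in 24, KRT80 in 15 and MMP7 in 2, those without chip TiO2 replicate 4 or chip TiO2-control replicate 4. KRT80 and MMP7 had Transwell means below the highest array median. Of 22 measured fatty acid oxidation and PPAR genes 13 had more spread at an unadjusted p below 0.05. The F test called 7 of them (4 without the 2 arrays), and their median SD fold was 2.305 (2.04 without them). The interferon, YAP and extracellular matrix lists held 24, 19 and 28 measured genes, with median SD folds of 1.60, 1.67 and 1.59. In these lists 8, 5 and 8 genes passed the unadjusted cut and 4, 3 and 3 the F test. Of 22 drug metabolism genes 2 were called: UGT2A3, a glucuronosyltransferase (SD 0.41 and 0.07, fold 6.55, limma adjusted p = 0.0257), and CES1, a carboxylesterase (0.40 and 0.08, fold 4.93, adjusted p = 0.0278). Without both arrays numbered 4 the adjusted p of both was 0.0586. Of 18 cholesterol synthesis genes 0 passed limma (12 at an unadjusted p below 0.05), but 9 passed the F test (3 without the 2 arrays). Their median SD fold was 2.51 (1.94 without them), and all 18 had a ratio above 1. SQLE (fold 4.73) and EBP (fold 4.16), enzymes of the pathway, had limma adjusted p-values of 0.0621 and 0.0585.

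At the other end, 25 mucus and secretory genes had a median SD fold of 1.07, 24 nuclear-encoded respiratory chain genes 1.19, 24 NRF2 targets 1.25 and 23 genes of the unfolded protein response 1.29, and limma called 0 of each. At an unadjusted p below 0.05 these lists held 5, 2, 6 and 5 genes with more spread in the chip, beside 15.3% of all genes. The F test called 2, 1, 3 and 3, beside 6.06% of all genes. By both counts the shares of the mucus, NRF2 and unfolded protein lists lay above those of all genes, and that of the respiratory chain below. But most members of these lists were brighter genes (19, 23, 23 and 23 in the order of the medians), and all genes include dim ones with lower ratios. In a limma fit of the 13744 brighter genes alone 3066 passed the unadjusted cut. The shares of all genes are thus a low mark for these lists. The 15 stromal and immune genes had a median SD fold of 1.04 (limma 0, 4 unadjusted, F test 2). Between these ends lay hypoxia (31 genes, median SD fold 1.60), cell junctions (23, 1.63), p53 targets (22, 1.43), aryl hydrocarbon receptor targets (7, 1.56), iron handling (16, 1.65), replication-dependent histones (16, 1.72), NF-kB and inflammatory genes (25, 1.55), immediate early genes (21, 1.48) and ribosomal proteins (22, 1.45). Limma called 0 in each of these 9, with 1 to 10 genes at an unadjusted p below 0.05 and 1 to 5 by the F test. The low medians above are levels of spread near or below the median of all genes, and no list was tested against it. Against genes of like level within each group, the median log2 ratio was 0.48 for the enterocyte list, 0.37 for lipid absorption and 0.59 for cholesterol synthesis. It was 0.50 for metallothioneins and 0.49 for fatty acid oxidation. For the mucus list it was -0.09, for NRF2 targets -0.23, for the unfolded protein response -0.04 and for the respiratory chain -0.42, beside 0.00 for all genes. The value for all genes follows from the matching itself.

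**Figure D4:**
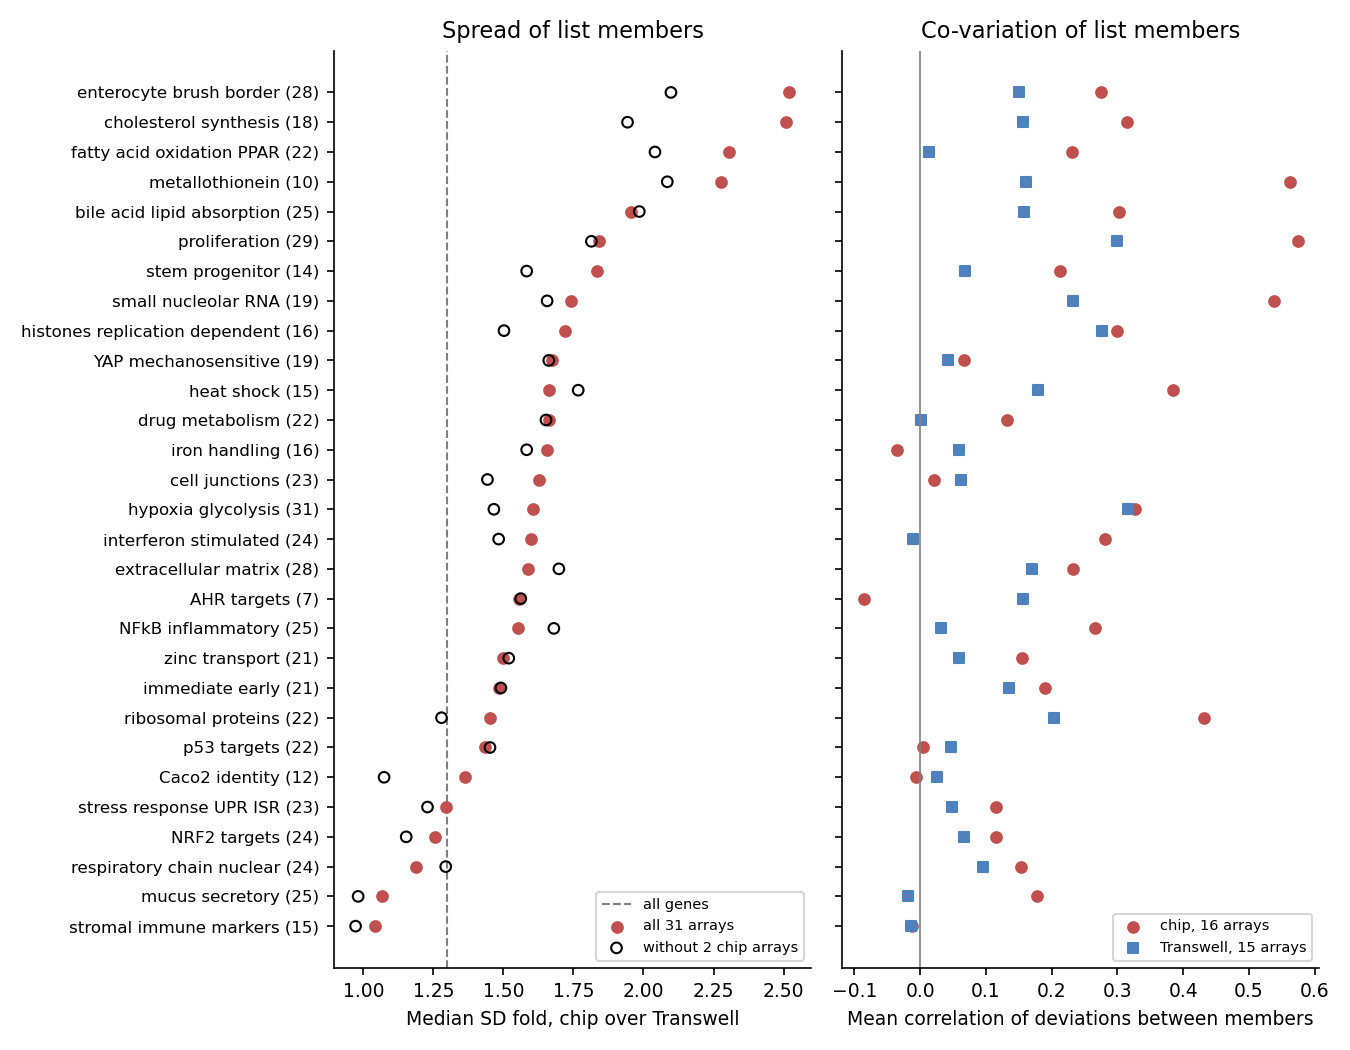
Gene lists with the number of measured members in brackets. Left, median SD fold of chip over Transwell with all 31 arrays (red) and without both chip arrays numbered 4 in the TiO2 set (open), and the median of all genes as a dashed line at 1.30. Right, mean correlation of deviations between brighter members in the chip (red) and in Transwell (blue). The enterocyte list has the largest fold at 2.52, and proliferation (0.574) and metallothionein (0.563) the largest chip correlations.

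The deviations of the chip arrays followed several patterns, with different arrays at their ends. The first 3 principal components of the chip deviations held 15.3%, 13.6% and 10.1% of their variance, out of 12 dimensions, and those of Transwell 14.2%, 11.4% and 10.1%. On the first chip component ZnO replicate 1 (-38.6) and TiO2 replicate 4 (-28.6) lay opposite to ZnO replicate 3 (21.6), and the largest loadings were on the side of the first pair. They were those of MIR548K, MIR3115, RN5S450, RN5S395, EID3, SNORD11B, RN5S129 and SPDYA (-0.0535 to -0.0404), of which 6 are small RNA genes or 5S RNA sequences. On the other side TLDC2, DHRS2 and LINC01559 led, with loadings of 0.0318 or less. The second set TiO2 replicate 4 (-30.5) and TiO2-control replicate 4 (-25.9) against TiO2-control replicate 2 (24.3). Its leading genes were MS4A10, XPNPEP2, CEL, FBP1, GRAMD1B, APOA4 and SLC17A4 on 1 side and MIR548O2, KRT23, LOC100128340, MIR21, SULT1C4, LINC01004 and MIR192 on the other. The third set ZnO-control replicate 3 (-29.6) against ZnO-control replicate 2 (24.1), with MTTP, TAS2R14 and RNU7-40P leading on the side of replicate 3 and SNORD116-27, RNU5B-1, VTRNA1-1, SNORD14E and HSPA6 on that of replicate 2.

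The 175 called brighter genes were grouped by the correlation of their deviations over the 16 chip arrays, which gave 9 groups of 5 or more with 163 genes. Correlations within groups in the chip follow from this choice, so the Transwell values are the ones it did not use. Group 1 held 41 genes. Among them were digestive and lipid genes (SI, MTTP, APOA1, APOB, APOC3, CEL, MEP1A, CUBN), hepatic and plasma protein genes (AFP, SERPINC1, F2, KNG1), genes of glucose and urea synthesis (FBP1, PCK1, CPS1) and transporters (SLC26A3, SLC17A4, SLC23A1). Their mean correlation was 0.637 in the chip, 0.602 without the 2 arrays, and 0.212 in Transwell. Their mean deviation ran from -0.73 (TiO2-control replicate 4) to 0.57 (ZnO-control replicate 3) in the chip and from -0.07 to 0.06 in Transwell. Group 2 (31 genes, with LCT, KRT20, HES1 and PLIN2) was lowest in ZnO replicate 1 at -0.70 and had a correlation of 0.010 in Transwell. Group 3 (30 genes, with SLC10A2, FGA, TAT and GUCY2C) was lowest in TiO2 replicate 4 (-0.785) and ZnO replicate 1 (-0.503). Group 6 (11 genes, with KCNJ16, CES1, UGT2A3 and SLC38A4) was lowest in ZnO replicate 2 (-0.73) and ZnO-control replicate 1 (-0.62) and had a correlation of 0.201 in Transwell.

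The genes most like SI in their deviations over the 16 chip arrays were XPA (r = 0.883), DNASE1 (0.867), TTYH2 (0.866), APOB (0.863) and SERPINF2 (0.860), and the most opposite were UCHL1 (-0.897), SLC12A2-DT (-0.876) and CABYR (-0.868). These genes were picked as the extremes among the 13744 brighter genes, so large chip values of r follow in part from the choice. In Transwell, which the choice did not use, the same pairs had r = -0.468 for XPA, 0.268 for APOB and -0.129 for UCHL1.

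Mean deviations of whole lists also moved together. The enterocyte and lipid absorption lists, which share 4 brighter members, had r = 0.985 over the 16 chip arrays (rho 0.979) and 0.886 in Transwell. The enterocyte and drug metabolism lists share none and had r = 0.800 (rho 0.831, 0.834 without the 2 arrays farthest out on the first list) against 0.014 in Transwell. Proliferation and enterocyte genes ran in opposite directions, with r = -0.587 (rho -0.556), -0.476 without both arrays numbered 4 and -0.409 without the 2 arrays farthest out on proliferation. These lists also ran in opposite directions in Transwell, and within the chip more weakly in the ZnO set than in the TiO2 set. SI itself had r = -0.223 with the proliferation mean in the chip and 0.111 in Transwell. Its chip value was -0.15 without both arrays numbered 4 and -0.423 without the 2 farthest out. Proliferation and metallothioneins had r = -0.658 (rho -0.412), but -0.186 without TiO2-control replicates 2 and 4, so this relation rests on those arrays. All such pairs share arrays, normalization and group means, and they are descriptions without a test.

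**Figure D5:**
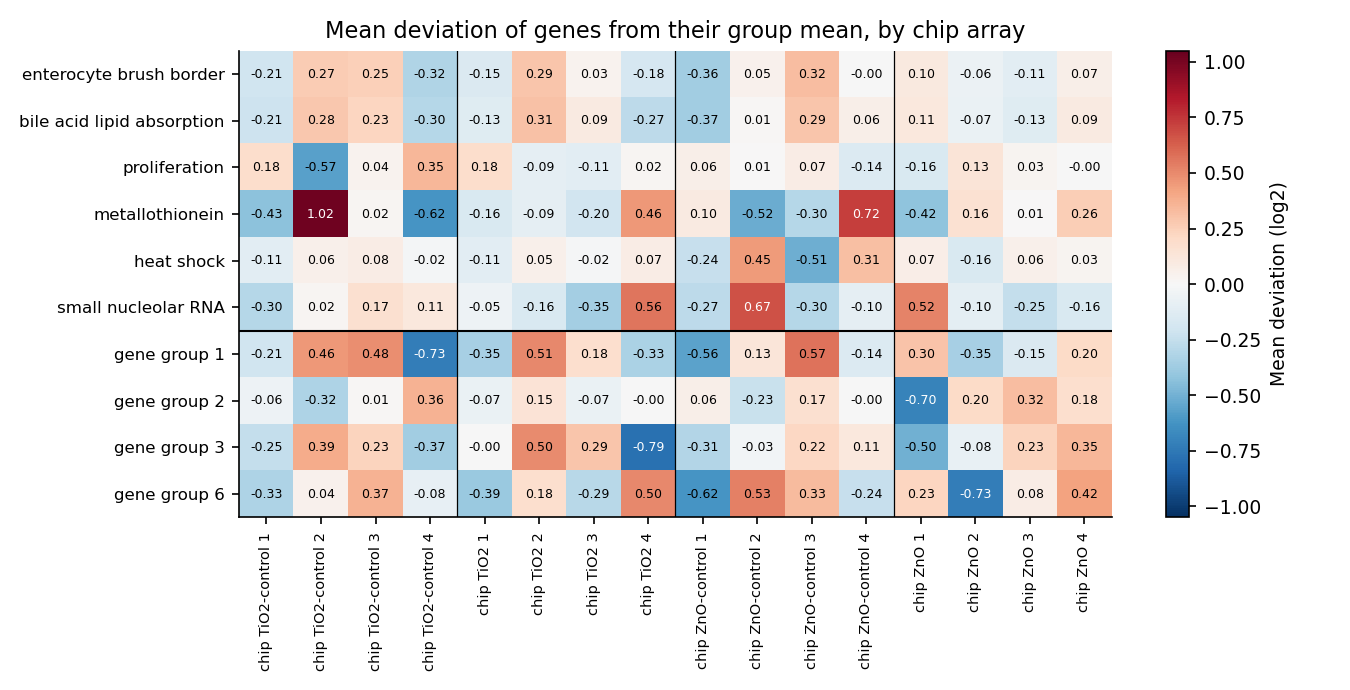
Mean deviation in log2 units of 6 gene lists (above the line) and of 4 groups of called genes (below it) in each of the 16 chip arrays, red above and blue below the group mean, with values printed in the cells. Enterocyte and lipid absorption rows match, the metallothionein row peaks at 1.02 in TiO2-control replicate 2, the heat shock row varies mostly in ZnO-control, and group 1 is lowest in TiO2-control replicate 4 at -0.73.

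The larger spread in the chip was found in both sets. For the difference of the chip-to-Transwell ratio between the TiO2 and ZnO sets, limma called 0 of 22395 genes (0.00%), with 1132 at an unadjusted p below 0.05 (5.05%). With 4 groups in each set, chip and Transwell together, limma called 0 genes in either set alone, and 1862 and 2430 genes had more spread in the chip at an unadjusted p below 0.05 in the TiO2 and the ZnO set. Of genes with less spread in the chip the 5 with the smallest p were LINC00511, MIR1224, PELATON, NPTX2 and TRBV6-9. Their fitted SD folds were 0.299 to 0.366 and their limma adjusted p-values 0.125 to 0.155. All 5 had mean levels of 3.44 to 4.22, near the array medians.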

How the data were processed

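Total RNA of 31 Caco-2 cultures was labelled and read on an Affymetrix whole-transcript array, per the labels' protocols. The log2 values were deposited by the authors, and the submitters' processing notes name RMA. Neither its version nor the annotation's build is given in the sources used here. Because RMA makes the distributions of arrays alike, a shift of most genes in 1 array would be reduced. Of 53617 probe sets 23871 name 1 gene, 1842 several and 27904 none in the platform annotation. Symbols were updated by gene ID for 22569 probe sets from RefSeq (GRCh38.p14), and the brightest probe set was kept for 632 genes with several, which gave 22395 genes. No filter on level was applied, and values had no depth, so the number of arrays limits the precision.

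Per gene and group the within-group SD was taken, corrected for its degrees of freedom and put on the log2 scale, with weights by group size. Limma 3.58.1 in R 4.3.3 fitted 1 mean for the 4 chip and 1 for the 4 Transwell groups, with empirical Bayes (6 residual degrees of freedom, 23.9 with the prior) and Benjamini-Hochberg adjustment over all genes. A gene is called at an adjusted p below 0.05, and SD folds are those of this fit. Deviations are values minus the group mean, and the mean deviation of a list is over its brighter members. Groups of called genes came from average linkage of correlations at a distance of 0.6. The procedure was tested on simulated data. Promoter windows hold 250 bases before the RefSeq gene start.

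Genes named were up to 15 called brighter genes with the largest chip SD that were still called without both chip arrays numbered 4 of the TiO2 set, which left SI, so the 15 without that last condition were added. To these came the 5 with the smallest p for less spread, up to 4 members with the smallest p per list, up to 8 genes on each side of 3 components and 5 neighbours of a gene on each side. Other names, such as called list members and members of gene groups, were chosen after their values were seen. The 29 gene lists, the comparison and the rules were chosen with earlier results of these data known. Alternatives were arrays left out, other normalizations, filters, tests and the replicate number as a block. Those without chip ZnO replicate 1, at like level in each group and with the F test on fewer arrays were added after seeing the data.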

Additional observations from a re-analysis of the deposited data

Results flagged for a closer look

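In each group of 4 arrays the highest and lowest value of 23 quantities was set against the others. Of 161 groups tested 10 (6.21%) held a value far from the other 3, 8 in the chip and 2 in Transwell. Transwell TiO2, with 3 arrays, was not tested, so fewer groups were tested in Transwell than in the chip. Some of the quantities, SI among them, were named for their chip spread, and the quantities are not independent. Chance gives about 1 in 20. Among genes these were SI in chip TiO2-control replicate 3 (log2 level 9.58, high), MTTP in chip ZnO-control replicate 3 (7.66, high), CEL in chip ZnO replicate 2 (6.42, low), KCNJ16, an inward rectifier potassium channel, in chip TiO2-control replicate 1 (4.67, low) and MMP7 in chip TiO2-control replicate 4 (7.16, high). The mean deviation of the proliferation list was high in Transwell TiO2-control replicate 1 (0.15), and that of gene group 2 was low in chip ZnO replicate 1 (-0.70). The root mean square deviation over all genes was high in chip TiO2 replicate 4 (0.367), chip ZnO replicate 1 (0.364) and Transwell ZnO-control replicate 1 (0.268).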

How the results depend on the processing

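The log2 ratio of overall spread (0.35) stayed above 0 under every alternative run, at 0.30 to 0.37 with 1 array left out and 0.34 with the replicate number as a block. The count of 186 genes with more spread in the chip did not hold its size. With limma it was 1 without both chip arrays numbered 4 of the TiO2 set, 2 without chip ZnO replicate 1 as well, 449 over brighter genes only, 1 relative to genes of like mean level and 0 relative to genes of like level in each group. It was 36 to 200 with 1 array left out, and 0 in the TiO2 set, the ZnO set, the control groups or the exposed groups alone, where unadjusted counts were 1862, 2430, 2011 and 2198 and 4 groups enter each fit. The F test called 1357 genes with more and 40 with less spread, or 791 and 21 without both arrays numbered 4. Limma on absolute deviations called 1060 and 34. Both comparisons at like level also take out the difference of spread that genes of like level share. The count of genes with less spread was 0 to 1 with 1 array left out, and the count of genes whose ratio differed between the sets was 2 after quantile normalization of the gene table. The first chip component held 16.5% of the variance without the 2 arrays, 18.3% over brighter genes and 18.9% with the replicate block. Where no smaller number of arrays, groups or genes is named the cause was not tested. Most of the 201 genes named by rule were not called in the main fit. Without both arrays numbered 4, 37 lost their call and SI alone kept it. By the F test 79 gained one.

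By the rule that every pair's correlation exceed 0.1, replicate numbers did not pair the arrays. Same-numbered chip arrays had a mean residual correlation of -0.0172 over 24 pairs, 0 of them above 0.1 (exact permutation p = 0.364, two-sided). Over the brighter genes 3 of the 24 exceeded 0.1 (highest 0.126), with a mean of -0.0243 (exact permutation p = 0.363). Same-numbered Transwell arrays had -0.0167 over 21 pairs, 0 of them above 0.1 (exact permutation p = 0.145). With the replicate number as a block the F test called 217 genes with more and 5 with less spread, and with a block within sets 1 and 0, with fewer degrees of freedom left.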
